A study of Homo sapiens with 12 samples.

Results

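Histone genes were examined in poly(A)-selected RNA of Ishikawa cells, a human endometrial adenocarcinoma line, with and without knockdown of ARID1A. ARID1A is a DNA-binding protein of SWI/SNF complexes, which move nucleosomes. The members are all gene symbols in the count files that begin with HIST1H to HIST4H, H1F or H2AF, or that are H3F3A, H3F3B or H3F3C. This rule found 37 of 45320 genes. Of these, 24 carry names of the replication-dependent clusters (6 coding genes and 18 pseudogenes) and 13 carry names of variant histones (8 coding genes and 5 pseudogenes). The rule uses names only, and most intronless replication-dependent genes, and the variant genes H1F0, H1FX and H2AFX, are not analysed here.

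All cells were grown in phenol red-free medium with charcoal/dextran-treated serum, which is low in steroid hormones. Cells with a hairpin against ARID1A (shARID1A) or a control hairpin (shNC) received 10 nM 17-beta-estradiol (E2), the same dose of E2 with 100 nM fulvestrant, or DMSO, for 8 h. Fulvestrant is an antagonist that also promotes loss of the estrogen receptor. Each of the 6 groups has 2 libraries, 12 in total. Whether replicates are separate cultures, and how many hairpins or clones stand behind an arm, is not given in the labels, so p-values measure the spread between these libraries, which may be technical, and the hairpin and any other difference between the lines cannot be told apart.

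Replication-dependent histone genes supply new nucleosomes during S phase. Their mRNAs are normally neither spliced nor polyadenylated: they end just after a stem-loop that is bound by SLBP, and poly(A) selection therefore captures them poorly. Some of these genes also give spliced or extended transcripts with a poly(A) tail. Variant histones such as H2A.Z, H3.3 and macroH2A are made throughout the cell cycle from ordinary genes with introns and polyadenylated mRNAs, and they replace the canonical histones at promoters, in transcribed genes or in silent chromatin.

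Sequence elements of the 2 kinds of 3′ end are shown here with short stretches from GENCODE v29 transcripts (GRCh38). In the first 3, the stem and loop of the histone stem-loop are in capitals. These annotated transcripts of replication-dependent genes run on past it, HIST1H2BN-204 by 377 bases, HIST2H2BF-201 by 1479 and HIST4H4-201 by 1510. HIST2H2BF-201 also carries a poly(A) signal, ATTAAA, 23 bases from its end.
HIST1H2BN-204: ccccaaaGGCTCTTTTCAGAGCCactcagt
HIST2H2BF-201: ccccaaaGGCTCTTTTCAGAGCCacttcag
HIST4H4-201: tccaaaaGGCCCTTTTCAGGGCCcccaaac
In the next 3, the last 30 bases of transcripts of HIST1H2BN, HIST1H2BJ and the variant gene H2AFJ, a poly(A) signal (AATAAA or ATTAAA) is in capitals.
HIST1H2BN-203: ataaaaggcaAATAAAaatctgttcttaga
HIST1H2BJ-203: gaataaatgAATAAAgtaatattcctctgc
H2AFJ-202: aaagtaatgATTAAAgcttgtgaatctgaa

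The exons counted for a histone gene were often not those of its intronless mRNA alone. The exon layout counted for HIST1H2BN, an H2B gene on chromosome 6, has 3 exons (hg19, plus strand) and the shape of HIST1H2BN-203, 4137 bases that end in the poly(A) signal printed above and hold no stem-loop. For HIST1H2BJ, another H2B gene, only 408 bases were counted, in the shape of HIST1H2BJ-202: 24 bases inside the gene body at chr6:27100304-27100327 and 384 bases of a downstream exon at chr6:27093858-27094241 (hg19, minus strand). Reads that touch neither stretch could not be counted, and the downstream exon begins where the last exon of HIST1H2BJ-203 begins in GENCODE v29. HIST2H2BF, an H2B gene on chromosome 1, was counted over 3 exons spread across 18905 bases and 1407 exonic bases. Shape was matched by exon sizes and spacing, with no conversion of coordinates between builds.

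Reads of some members cannot be told from those of other genes. Cut into windows of 50 bases, the counted sequence of HIST1H2BJ shared 0% with transcripts of any other gene, and that of HIST1H2BN 5.11%. By contrast, 83.2% of the windows over all annotated transcripts of HIST1H1PS1 were shared, all with AL031777.3. For H2AFY, 1 of the most abundant members, 28.3% were shared over all its transcripts, mostly with C5orf66. These partners do not carry histone names. Of the H2B pseudogenes, HIST2H2BD shared 95% of its windows and HIST2H2BC 79.7%, with all the shared windows of each found in the other. For HIST1H3J, the counted 522 bases match a transcript with no annotated coding part. They still overlap the coding transcript HIST1H3J-201, of 411 bases, since both together cover 775 exonic bases. Of the HIST1H3J windows, 62.8% were also in HIST1H2AM, which is not analysed here. The H2A.Z pseudogene H2AFZP3 shared 18.9%, nearly all with H2AFZ, and H3F3A 12.9%, all of it present in the pseudogene H3F3AP4. HIST2H2BF shared 26.9% over all its annotated transcripts. Exons of H2AFZ, H2AFY and H3F3B also overlap genes on the opposite strand, from which reads counted without strand cannot be told apart. Counting used no option for multiple alignments, so reads that fit more than 1 gene may have been left out, which was not tested. Values of these genes are uncertain to that extent, and those with many shared windows may be too low.

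**Figure D1:**
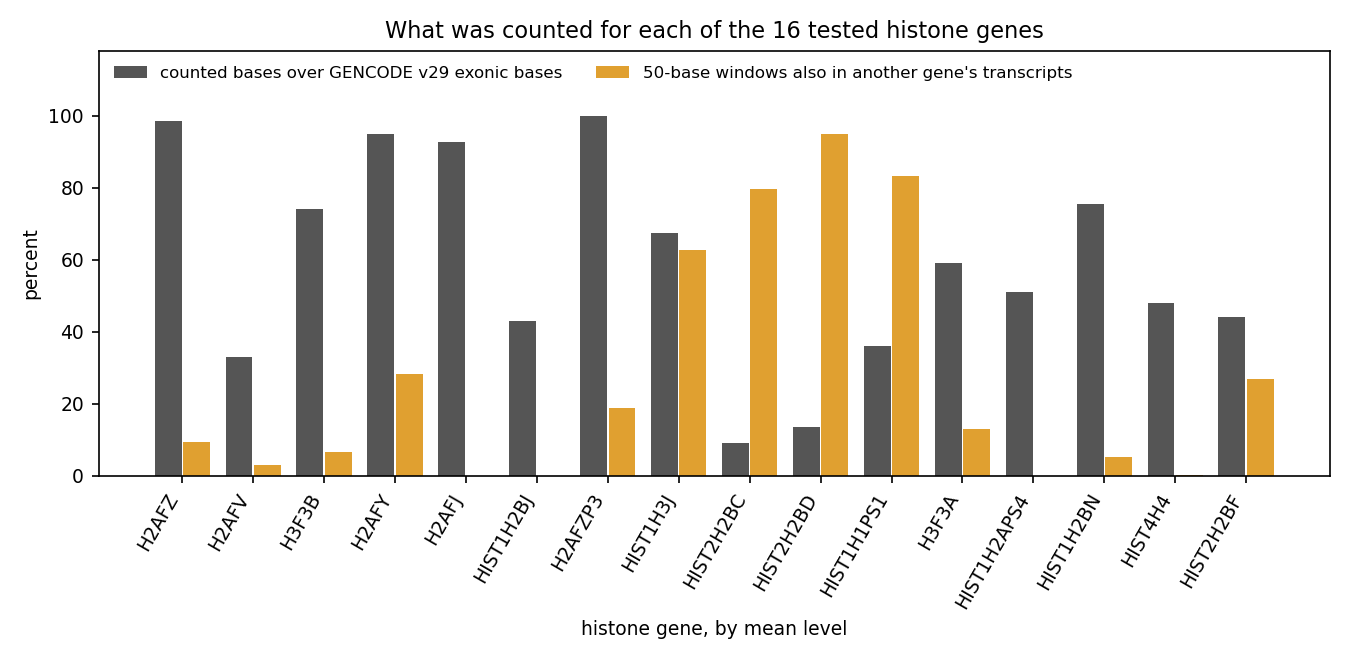
Counted bases as a percent of the exonic bases of all GENCODE v29 transcripts of the gene (grey), and percent of 50-base windows that also occur in transcripts of another gene (orange), for the 16 histone genes that passed the filter on low counts, ordered by mean level. HIST1H2BJ stands at 42.9% of exonic bases with 0% shared, and HIST2H2BD at 13.6% with 95% shared. Orange bars cover the counted sequence, except for H2AFZ, H2AFV, H3F3B, H2AFY, HIST1H1PS1, HIST4H4 and HIST2H2BF. For these, the windows are those of all annotated transcripts of the gene.

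Counts were present in every library for 16 of the 37 members, and 10 had a count of 0 in all 12. A count of 0 allows up to 3 counts, or 0.0776 to 0.104 CPM when divided by the raw library total, for counting error alone. All other CPM values use TMM-adjusted library sizes. Another 5 members had 1 to 3 counts in total. Those at 0 are 9 pseudogenes of the replication-dependent clusters and of H2A.Z, among them HIST3H2BA, whose counted model does contain the stem-loop, and the coding gene HIST2H3PS2, an H3 gene whose windows are all shared with other genes. The 16 members that passed the filter and were tested are those with a count in every library, except that the H2A.Z pseudogene H2AFZP1 did not pass and the H2A pseudogene HIST1H2APS4, with a count of 0 in 1 library, did. The oocyte linker histone gene H1FOO had 4 counts, all in 1 library, and macroH2A2 (H2AFY2) had 5 counts in 2 libraries.

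Variant histone genes held nearly all histone reads. Together the 13 variant genes took 0.133% to 0.141% of the counts of a library, 39100 to 51914 counts, and the 24 replication-dependent genes took 0.000714% to 0.00121%, 220 to 461 counts. H3F3B, which encodes H3.3, gave 32.4% of all member counts, H2AFY (macroH2A1) 26.8%, H2AFZ (H2A.Z.1) 25.1% and H2AFV (H2A.Z.2) 13.3%. Per length of the counted model, in RPKM (CPM per kilobase), the order over 12 libraries was H2AFZ (140.4 to 164.8), H2AFV (106.8 to 127.4), H3F3B (92.9 to 103.3), H2AFY (21.4 to 22.8) and H2AFJ (5.69 to 7.09). These 5 ranges do not overlap, but the order depends on the counted lengths. H2AFY is divided by 16828 bases, although its coding transcripts, such as H2AFY-201 with 1881 bases, are far shorter. H3F3B, H2AFZ and H2AFV are divided by 4547, 2270 and 1561 bases. In CPM the means were 445.5 for H3F3B, 368.5 for H2AFY, 345.1 for H2AFZ and 182.4 for H2AFV. H2AFJ encodes H2A.J, an H2A variant.

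HIST1H2BJ was the highest replication-dependent gene per length, with a mean of 5.79 RPKM, and its range of 2.35 to 11.99 RPKM overlaps that of H2AFJ. It was followed by HIST1H3J (mean 2.70 RPKM), HIST2H2BC (2.28), HIST2H2BD (2.25) and the H1 pseudogene HIST1H1PS1 (1.40), whose ranges overlap each other. The rank of HIST1H2BJ rests on its short counted model of 408 bases, 384 of them in the downstream exon. In CPM its mean of 2.36 was close to the 2.14 of HIST1H2BN, which is divided by 4137 bases. H3F3A, the other H3.3 gene, stood at 0.709 to 1.38 RPKM, far below H3F3B, over a counted model that holds 59.2% of its annotated exonic bases. That model has the shape of H3F3A-202, in which no poly(A) signal was found, and spans 4556 of the gene's 10151 bases. The forms H3F3A-201 and H3F3A-203 do carry a signal, ATTAAA, near their ends. How much H3F3A mRNA the counted exons miss was not tested, so the low value may not be the level of the gene.

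**Figure D2:**
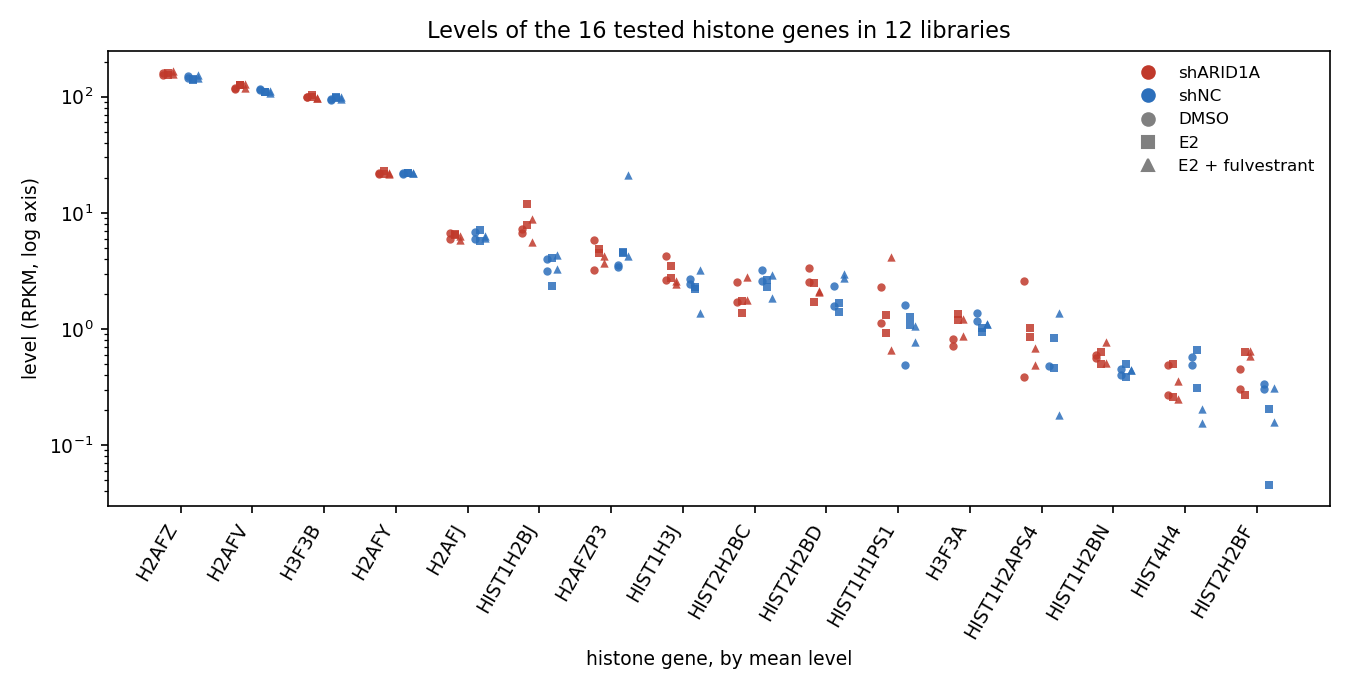
Level of the 16 tested histone genes in each library, in RPKM on a log axis, ordered by mean. Red marks are the 6 shARID1A libraries and blue marks the 6 shNC libraries, with the shape giving the treatment. A HIST1H2APS4 value of 0 in 1 shNC library is not drawn. Variant genes H2AFZ, H2AFV and H3F3B stand near or above 100 RPKM and the replication-dependent genes between 0.0454 and 11.99 RPKM.

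The 12 libraries held 28810351 to 38657162 counts. ARID1A itself was at 53.8 to 61.7 CPM in shARID1A libraries, against 109.9 to 123.3 CPM in shNC libraries (log2 fold change -1.03, SE 0.04, edgeR adjusted p = 3.02e-19). Of 7 epithelial markers, KRT8 and KRT18 were high and CDH1 and KRT19 were under 1 CPM. Summed epithelial markers were 605.3 to 657.7 CPM in shARID1A libraries and 948.6 to 1044 CPM in shNC libraries. Summed stromal markers, led by COL1A1, were 50.1 to 53.3 CPM in shARID1A libraries and 32.2 to 44.0 CPM in shNC libraries. That sum follows COL1A1, while the other 2 stromal markers tested were lower in shARID1A cells, DCN with a log2 fold change of -2.91 and PDGFRB with -0.55. The endothelial markers stayed at or under 0.264 CPM. In bulk samples, fewer cells of a type and less RNA per cell cannot be told apart, and the part of these shifts in the histone values was not tested.

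ARID1A knockdown came with higher levels of the 3 coding H2B genes that could be tested, and with small increases of both H2A.Z genes. Apart from HIST1H2BJ, these calls depended on single libraries or on the scaling, as given below. Averaged over the 3 treatments, 5 of the 16 tested members were higher in shARID1A cells and 0 were lower, by edgeR's quasi-likelihood test with Benjamini-Hochberg adjustment over 17020 genes. Of all genes tested, 43.1% were called, 20.3% higher and 22.8% lower, so calls were common among all genes. Read against that, 5 of 16 members is below the share of all genes called, though above the share called higher. For the count of 0 lower calls, 0 members were lower at an unadjusted p under 0.05 as well, and DESeq2 called the same 5 genes higher and 0 lower. With raw library totals 3 members were called, HIST1H2BJ and HIST2H2BF higher and H2AFY lower, and of all genes 2423 were higher and 5145 lower, against 3458 higher and 3881 lower with TMM scaling. Without replicate 2 of shNC with E2 plus fulvestrant, H2AFZP3 was called lower (log2 fold change -0.66, adjusted p = 0.00498), so the count of 0 lower does not hold there. The median log2 fold change was 0.12 over the members tested and -0.02 over all genes.

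HIST1H2BJ had the smallest adjusted p of the members averaged over treatments. It had 2.71 and 2.97 CPM with DMSO, 3.23 and 4.89 CPM with E2 and 3.64 and 2.30 CPM with E2 plus fulvestrant in shARID1A libraries. In shNC libraries it had 1.64 and 1.28 CPM with DMSO, 0.957 and 1.65 CPM with E2 and 1.75 and 1.35 CPM with E2 plus fulvestrant. Every shARID1A library was above every shNC library, with 2.30 CPM in the lowest shARID1A library and 1.75 CPM in the highest shNC library. These levels rest on 68 to 181 counts in shARID1A libraries and 30 to 57 counts in shNC libraries. The log2 fold change was 1.17 (SE 0.19, edgeR adjusted p = 5.12e-06), or 2.25-fold.

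HIST1H2BN, counted over exons of its spliced polyadenylated form, had 2.08 to 3.22 CPM in shARID1A libraries and 1.60 to 2.06 CPM in shNC libraries. Reads on its first counted exon, 438 bases, were counted whichever transcript they came from. The arms do not overlap, but the gap is small: 2.08 CPM in the lowest shARID1A library against 2.06 CPM in the highest shNC library. Its log2 fold change was 0.45 (SE 0.17, edgeR adjusted p = 0.035), and the call was lost with raw library totals (adjusted p = 0.0766) and when any of 8 libraries was left out, with adjusted p up to 0.168. It held without replicate 1 of shNC with DMSO, replicate 2 of shNC with E2, replicate 1 of shARID1A with E2 or replicate 2 of shARID1A with E2 plus fulvestrant. HIST2H2BF, named here after its values were seen because it lies under 1 CPM, had 0.378 to 0.911 CPM in shARID1A libraries and 0.0638 to 0.472 CPM in shNC libraries. Its 13 to 28 counts in shARID1A libraries and 2 to 14 counts in shNC libraries overlap between arms, and the log2 fold change was 1.12 (SE 0.37, edgeR adjusted p = 0.0143). The call was lost without replicate 1 of shNC with E2 (adjusted p = 0.0596), replicate 2 of shARID1A with DMSO (0.0631) or replicate 1 of shARID1A with E2 (0.088).

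**Figure D3:**
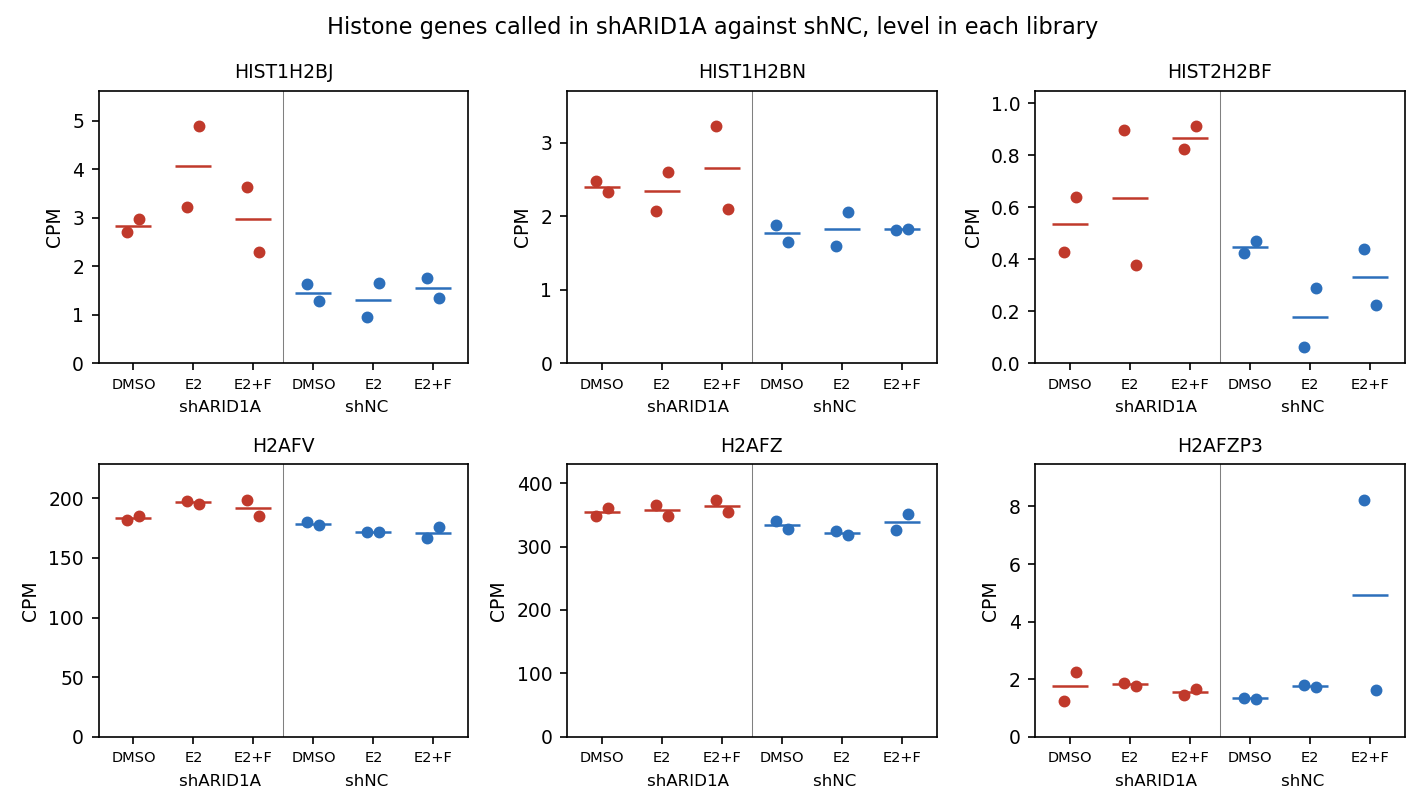
Level in CPM of the 6 histone genes called in at least 1 comparison of shARID1A with shNC, 2 libraries per group, with bars at the group mean. Red points are shARID1A and blue points shNC. HIST1H2BJ, HIST1H2BN and H2AFV do not overlap between arms. The 8.24 CPM of H2AFZP3 come from 1 library of shNC with E2 plus fulvestrant (E2+F).

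The other replication-dependent members passed no test. HIST1H3J had 1.27 to 2.23 CPM in shARID1A libraries and 0.720 to 1.67 CPM in shNC libraries (log2 fold change 0.34, SE 0.22, edgeR adjusted p = 0.221). HIST2H2BC and HIST2H2BD, whose counted sequences are largely shared, had fitted log2 fold changes of opposite sign, -0.38 (SE 0.22) and 0.18 (SE 0.23). Summed over both, they stood at 1.84 to 2.73 CPM in shARID1A libraries and 2.03 to 3.17 CPM in shNC libraries, which overlap. The next members lie outside the rule for named genes, apart from HIST1H1PS1, and are given to account for every member tested. HIST4H4, the only coding H4 member, had 0.309 to 0.622 CPM in shARID1A libraries and 0.192 to 0.812 CPM in shNC libraries. HIST1H1PS1 had 0.135 to 0.858 CPM in shARID1A libraries and 0.101 to 0.334 CPM in shNC libraries. HIST1H2APS4 had 0.135 to 0.892 CPM in shARID1A libraries and 0 to 0.481 CPM in shNC libraries.

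Over all 24 replication-dependent members, the summed level was 11.6 ± 0.918 CPM in shARID1A libraries and 8.30 ± 0.815 CPM in shNC libraries (SD, n = 6 each). The sums run from 10.3 to 12.5 CPM in shARID1A libraries and from 7.02 to 9.14 CPM in shNC libraries, with no overlap, a ratio of 1.40. HIST1H2BJ alone makes up most of the difference between the arm means, with 3.29 CPM in shARID1A libraries and 1.44 CPM in shNC libraries.

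Of the variant genes, the pair encoding H2A.Z rose slightly in shARID1A cells, H2AFV 1.10-fold and H2AFZ 1.08-fold in the edgeR average over treatments. H2AFV had 182.2 and 185.2 CPM with DMSO, 198.0 and 195.1 CPM with E2 and 198.9 and 185.0 CPM with E2 plus fulvestrant in shARID1A libraries. In shNC libraries it had 180.0 and 177.5 CPM with DMSO, 172.0 and 171.9 CPM with E2 and 166.7 and 175.7 CPM with E2 plus fulvestrant. The arms do not overlap for H2AFV, and the log2 fold change was 0.13 (SE 0.03, edgeR adjusted p = 0.00161). H2AFZ had 347.9 to 374.0 CPM in shARID1A libraries and 318.8 to 350.5 CPM in shNC libraries, which overlap (log2 fold change 0.11, SE 0.03, edgeR adjusted p = 0.00361). Both calls held with RLE size factors and with DESeq2 and were lost with raw library totals, where the log2 fold change was 0.06 for H2AFV (adjusted p = 0.13) and 0.04 for H2AFZ (adjusted p = 0.278).

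Not overlapping between the arms, in the direction of higher in shARID1A, were 3 of the 16 tested members (HIST1H2BJ, HIST1H2BN and H2AFV), against 11.4% of all genes tested. In the direction of lower there were 0, against 10.6% of all genes.

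The remaining variants passed no test averaged over treatments. H3F3B had 444.1 to 469.7 CPM in shARID1A libraries and 422.4 to 454.2 CPM in shNC libraries (log2 fold change 0.04, SE 0.03, edgeR adjusted p = 0.244). H2AFY had 360.8 to 383.2 CPM in shARID1A libraries and 362.7 to 370.5 CPM in shNC libraries (log2 fold change 0.01, SE 0.03), and with raw library totals it turned to -0.07 (adjusted p = 0.0409). H2AFJ had 18.1 to 20.8 CPM in shARID1A libraries and 17.7 to 22.01 CPM in shNC libraries (log2 fold change -0.01, SE 0.07). These 3 genes overlap widely between arms. H3F3A had 1.32 to 2.49 CPM in shARID1A libraries and 1.74 to 2.56 CPM in shNC libraries. The summed level of the 13 variant genes was 1394 ± 21.97 CPM in shARID1A libraries and 1337 ± 18.5 CPM in shNC libraries (SD, n = 6 each), a ratio of 1.04 that became 0.992 with raw library totals.

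Within single treatments, fewer members passed. In DMSO, HIST1H2BJ was the only member of 16 called, higher in shARID1A cells (log2 fold change 0.95, SE 0.34, edgeR adjusted p = 0.0457), where 19.2% of all genes were called in either direction, 9.7% higher and 9.5% lower. Leaving out either library of shNC with DMSO ended that call (adjusted p = 0.0832 and 0.242), as did leaving out either library of shARID1A with DMSO (0.11 and 0.189) or, by little, either of shNC with E2 plus fulvestrant (0.0504 and 0.0503). The H2A.Z pseudogene H2AFZP4, named after its values were seen, did not pass the filter with all libraries. It was called higher in DMSO in 9 of 12 fits with 1 library left out, and in 3 of these it was the only call. It had 3 and 20 counts in shARID1A libraries and 0 and 1 counts in shNC libraries with DMSO. With E2, 3 members were higher and 0 lower (0 lower also by DESeq2), against 27.2% of all genes called in either direction, 13.4% higher and 13.8% lower. These were HIST1H2BJ (log2 fold change 1.64, SE 0.30, edgeR adjusted p = 0.000108), H2AFV (0.19, SE 0.06, adjusted p = 0.0114) and H2AFZ (0.15, SE 0.05, adjusted p = 0.0372). At an unadjusted p under 0.05, 4 members passed with E2, all higher. The H2AFZ call was lost when any of 9 libraries was left out (adjusted p 0.0503 to 0.237) and held without the other 3, replicate 2 of shNC with DMSO and either shARID1A library with E2 plus fulvestrant. The H2AFV call was lost without replicate 2 of shNC or either shARID1A library with E2 (0.0523 to 0.0715). The HIST1H2BJ call with E2 held under all alternatives run, with log2 fold changes from 1.29 to 2.10.

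With E2 plus fulvestrant, 2 members were higher in shARID1A cells, HIST1H2BJ (log2 fold change 0.93, SE 0.33, edgeR adjusted p = 0.0375) and H2AFV (0.16, SE 0.06, adjusted p = 0.0361), and 1 was lower, H2AFZP3, against 24.2% of all genes called in either direction, 11.4% higher and 12.8% lower. H2AFZP3 is a processed pseudogene of H2AFZ on chromosome 13 at 99867626 to 99868012 (hg19, minus strand). It had 42 and 49 counts in shARID1A libraries and 263 and 51 counts in shNC libraries of this treatment, and 38 to 67 counts in the other 8 libraries. The fitted log2 fold change of -1.68 (SE 0.44, edgeR adjusted p = 0.0043) became -0.06 (adjusted p = 0.95) without the library of 263 counts. In that library H2AFZ itself had 326.1 CPM, inside the range of the other shNC libraries. Without that library the 2 higher calls were lost too, leaving 0 members. Without replicate 2 of shNC or replicate 1 of shARID1A in this treatment they were also lost, and H2AFZP3 was the 1 call left. The H2AFV call was lost as well without either library of shARID1A with DMSO (0.0511 and 0.0505) and without the filter (0.0569).

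**Figure D4:**
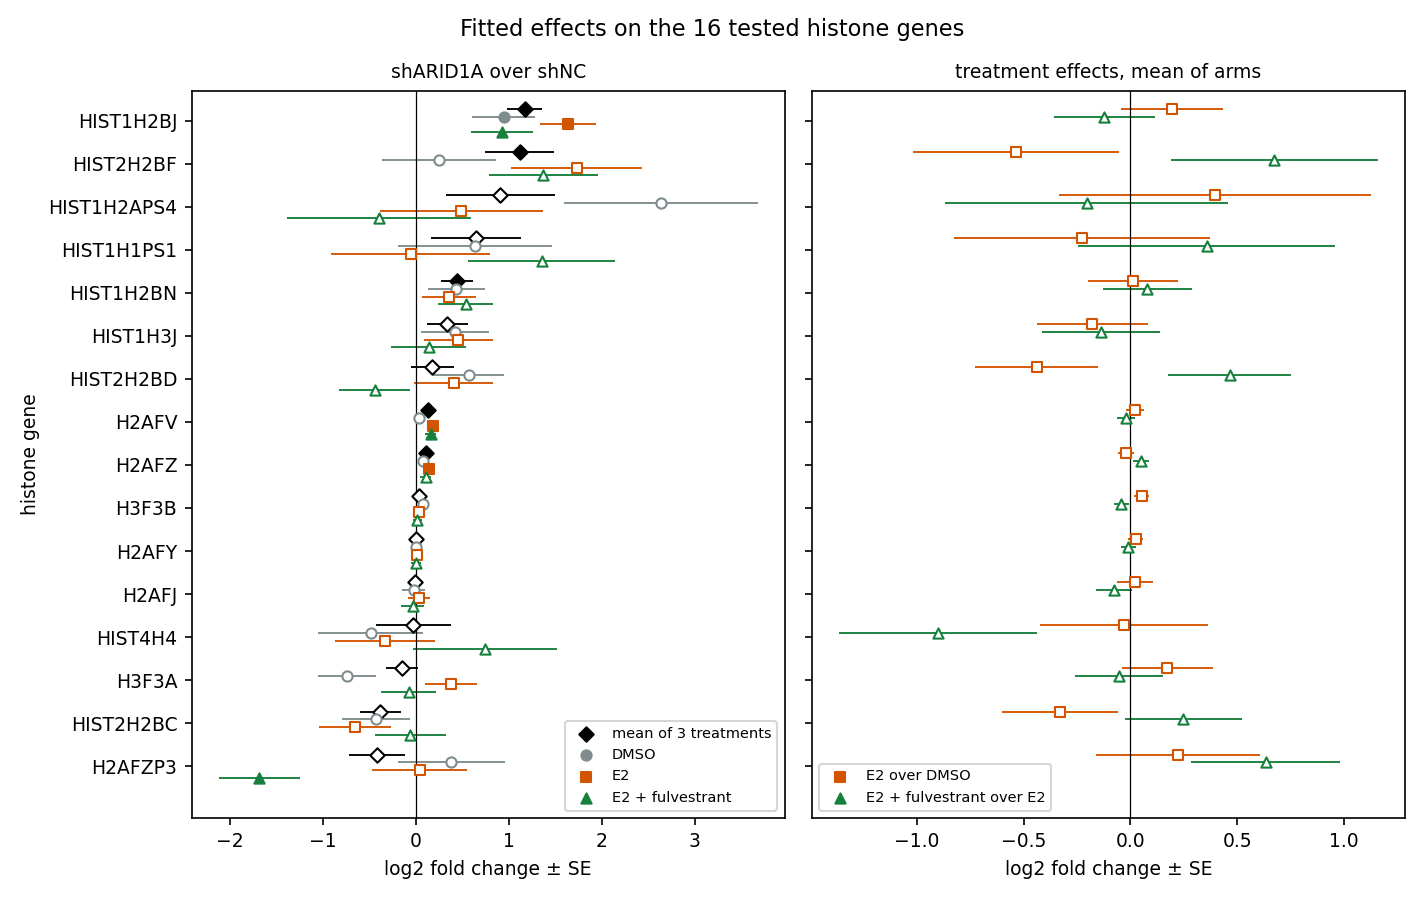
Fitted log2 fold changes with SE bars for the 16 tested histone genes. The left panel shows shARID1A over shNC, averaged and for each treatment. The right panel shows E2 over DMSO and E2 plus fulvestrant over E2, averaged over arms. Filled marks passed the test. HIST1H2BJ is filled in all 4 knockdown comparisons, and no mark is filled in the right panel.

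E2 and fulvestrant moved no histone gene past the threshold. For E2 over DMSO, averaged over arms, edgeR called 0 of 16 members, where 0.00588% of all genes were called, and 0 members had an unadjusted p under 0.05. For E2 plus fulvestrant over E2, it called 0 of 16 where 0.0646% of all genes were called (0.0235% higher, 0.0411% lower), again with 0 members at an unadjusted p under 0.05. DESeq2 called 0 members in both. With so few genes called anywhere, these counts are near the background.

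The abundant variants set the tightest limits on an E2 effect. In shARID1A cells H3F3B had 469.7 and 451.6 CPM with E2, against 450.9 and 450.6 CPM with DMSO. In shNC cells it had 454.2 and 445.3 CPM with E2, against 432.9 and 422.4 CPM with DMSO. Its log2 fold change for E2 over DMSO was 0.05 (SE 0.03), which did not pass the test (edgeR adjusted p = 0.999), although both E2 libraries lay above both DMSO libraries in each arm. H2AFY (0.02, SE 0.04), H2AFV (0.02, SE 0.04) and H2AFZ (-0.02, SE 0.04) did not pass either. HIST1H2BJ gave 0.19 with a larger error (SE 0.24).

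The E2 effect was not shown to differ between arms for any member. For the difference of the E2 effect, shARID1A minus shNC, edgeR and DESeq2 each called 0 of 16 members, where edgeR called 0.0294% of all genes (0.0235% higher, 0.00588% lower). H3F3A was the 1 member with an unadjusted p under 0.05. It had 2.49 and 2.24 CPM with E2, against 1.32 and 1.52 CPM with DMSO, in shARID1A cells, and 1.88 and 1.74 CPM with E2, against 2.18 and 2.56 CPM with DMSO, in shNC cells. The libraries with E2 thus lie above those with DMSO in shARID1A cells and below them in shNC cells, but the difference of 1.12 (SE 0.42) had an edgeR adjusted p of 0.752. The larger knockdown effect on HIST1H2BJ with E2 was likewise not shown to differ, at 0.69 (SE 0.48, adjusted p = 0.856).

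Promoters of HIST1H2BJ and HIST2H2BF are shown because these called H2B genes share a motif whose letters are not in the window of HIST1H2BN. The octamer ATTTGCAT, a known element of H2B promoters bound by POU2F1 (Oct-1), was searched on both strands in 300-base windows around each gene's start (RefSeq, GRCh38.p14). It was in windows of 3 of 13 coding members with a window (HIST1H2BJ, HIST2H2BF and H3F3B), against 1.77% of 35116 promoters. The box CCAAT was in windows of 11 of 13 (34.6% of all promoters) and TATAAA in 5 of 13 (11.5%). A member counts here if any of its windows matches, over 18 windows in all. The background is counted per promoter, so the shares are not like for like. In the 2 windows below, at chr6:27132746-27133045 and chr1:149812321-149812620 (both minus strand, printed in the direction of the gene), capitals mark these 3 motifs on either strand.
HIST1H2BJ: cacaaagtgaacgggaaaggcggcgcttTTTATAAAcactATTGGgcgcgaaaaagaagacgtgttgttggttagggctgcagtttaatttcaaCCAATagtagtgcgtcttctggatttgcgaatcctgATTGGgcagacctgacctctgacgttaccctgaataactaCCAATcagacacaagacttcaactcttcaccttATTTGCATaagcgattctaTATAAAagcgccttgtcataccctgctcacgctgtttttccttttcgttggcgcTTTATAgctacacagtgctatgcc
HIST2H2BF: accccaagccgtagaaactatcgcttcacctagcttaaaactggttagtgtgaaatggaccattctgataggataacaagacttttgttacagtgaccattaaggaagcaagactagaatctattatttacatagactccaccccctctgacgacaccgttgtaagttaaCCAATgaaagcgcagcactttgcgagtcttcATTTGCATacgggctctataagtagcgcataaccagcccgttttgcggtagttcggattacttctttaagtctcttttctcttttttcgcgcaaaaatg
In both, a CCAAT box, the octamer and the start follow in that order. H3F3B, which also holds the octamer, passed no test, and a match of letters is a description of the window only.

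Genes that make, process and deposit histones changed in both directions in shARID1A cells. Averaged over treatments, 7 of 22 tested genes of histone mRNA 3′ end formation and decay were higher and 7 lower, in a background of 43.1% of all genes called. SRRT (ARS2, a partner of the nuclear cap-binding complex, log2 fold change 0.31, SE 0.03), LSM10 (a U7 snRNP protein, 0.31, SE 0.06) and UPF1 (an RNA helicase of histone mRNA and nonsense-mediated decay, 0.26, SE 0.03) were higher. CASP8AP2 (FLASH, of the histone locus body, -0.44, SE 0.07) and NPAT (the coactivator of histone gene transcription, -0.23, SE 0.07) were lower, all by edgeR with adjusted p at most 0.00651. SLBP, the stem-loop binding protein, had 88.6 to 103.5 CPM in shARID1A libraries and 90.1 to 109.4 CPM in shNC libraries, which overlap (log2 fold change -0.01, SE 0.05). With raw library totals the split was 3 higher and 9 lower.

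Of 28 tested histone chaperones and deposition factors, 6 were higher and 13 lower, where 20.3% of all genes were called higher and 22.8% lower, with a median log2 fold change of -0.09 against -0.02 over all genes. With raw library totals the split was 3 higher and 17 lower. ANP32E, the chaperone that removes H2A.Z from nucleosomes, had 123.3 to 160.6 CPM in shARID1A libraries and 164.8 to 209.6 CPM in shNC libraries (log2 fold change -0.43, SE 0.04, edgeR adjusted p = 5.13e-10). It was lower in the same libraries in which H2AFZ and H2AFV were slightly higher, and a link between these changes was not tested. The H2AFZ and H2AFV calls were lost with raw library totals. UBN2, a subunit of the HIRA complex that deposits H3.3, fell by 0.50 on the log2 scale (SE 0.06). CENPA, the centromeric H3 variant, had 50.4 to 60.1 CPM in shARID1A libraries and 63.9 to 76.5 CPM in shNC libraries, and its chaperone HJURP had 69.4 to 74.8 CPM in shARID1A libraries and 84.6 to 93.2 CPM in shNC libraries (log2 fold changes -0.34, SE 0.05, and -0.33, SE 0.04). The nucleosome assembly proteins went opposite ways, with NAP1L4 at 0.28 (SE 0.03) and NAP1L1, named after its values were seen, at -0.26 (SE 0.03).

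S phase genes are given beside the replication-dependent genes because those are transcribed in S phase. Of 23 tested, 8 were higher and 4 lower in shARID1A cells, where 43.1% of all genes were called, 20.3% higher and 22.8% lower. PCNA is not analysed here. The replicative helicase genes MCM5 (log2 fold change 0.25, SE 0.03), MCM2 (0.23, SE 0.03) and MCM3 (0.18, SE 0.03) were higher, and the proliferation marker MKI67, at 47.2 to 60.4 CPM in shARID1A libraries and 64.6 to 88.0 CPM in shNC libraries, was lower (-0.44, SE 0.05), all by edgeR with adjusted p at most 8.34e-06. With raw library totals the S phase split turned to 4 higher and 6 lower, while these 4 genes kept their directions. The part of S phase genes in the H2B values was not tested.

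**Figure D5:**
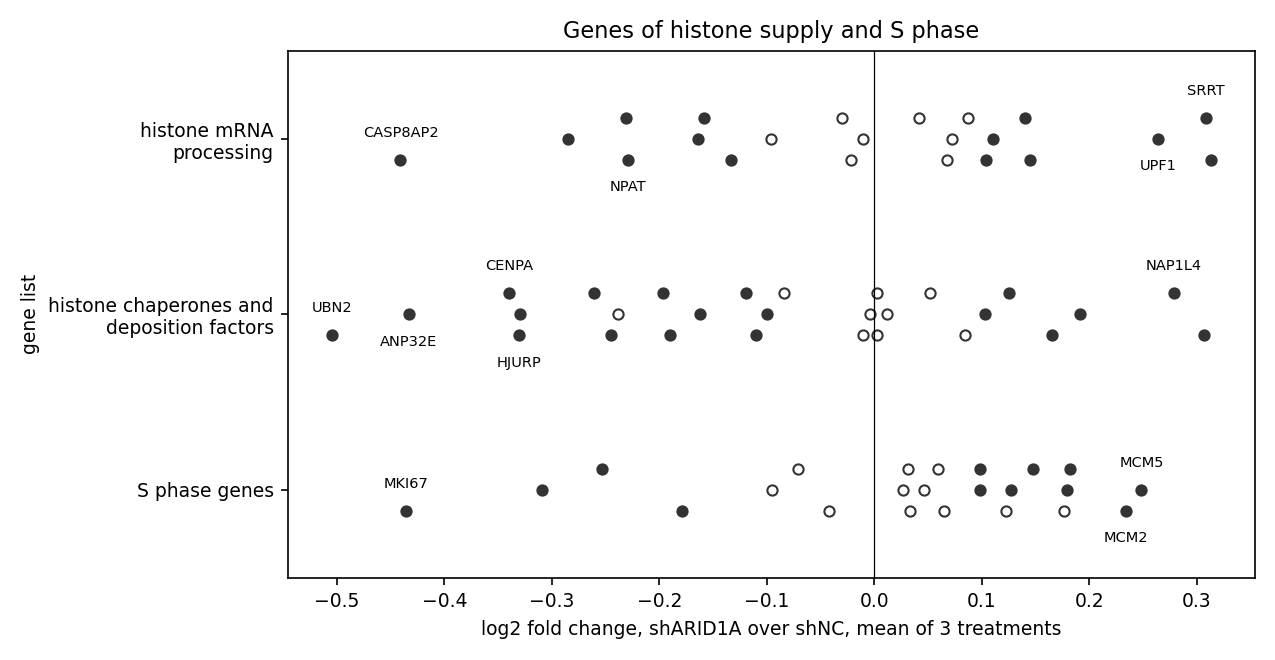
Log2 fold change of shARID1A over shNC, averaged over 3 treatments, for genes of histone mRNA processing, histone chaperones and deposition factors, and S phase genes. Each point is 1 gene, and filled points passed the test. Called genes lie on both sides of 0 in each list, with 13 of 19 called chaperones and deposition factors below 0.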

How the data were processed

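Libraries were made from total RNA with a TruSeq mRNA kit, per the labels' protocols. The deposited values are counts, whole reads per gene with no normalization by the authors. The submitters' processing notes list Subread 2.0.0, cutadapt, Trim Galore and FastQC with the build hg19. Exons were counted by gene with featureCounts 2.0.0, per the file headers, with no option for strand, read pairs or multiple alignments, so opposite-strand genes cannot be told apart.

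Counts of all 12 libraries were fitted in 1 model with a mean per group (edgeR 4.0.16, R 4.3.3, TMM scaling, filterByExpr by group, glmQLFit and glmQLFTest, Benjamini-Hochberg over 17020 genes, threshold 0.05). The fit was tested on simulated data. CPM use TMM-scaled library sizes, apart from the limit for a count of 0, and RPKM divide by the counted length. Alternatives were DESeq2 1.42.0, RLE size factors, raw library totals, no filter, a replicate block and leaving out each library. A gene model was matched to a GENCODE v29 transcript by exon sizes and spacing, and the stem-loop was searched as an exact stem.

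The members and gene lists were chosen with earlier results of these data known. Named genes are variant and called members whose mean reached 1 CPM, the 5 replication-dependent members highest in RPKM, and in each list the 4 called genes with the smallest adjusted p plus SLBP, NPAT, CENPA, PCNA and MKI67, with ARID1A as a check. Other members are given to account for all of them. A list of 18 other non-polyadenylated RNAs was not analysed here. The immune marker list is not reported here.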

Additional observations from a re-analysis of the deposited data

Results flagged for a closer look

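Within an arm of 6 libraries, 3 values of the 16 tested histone genes lay apart from the others by more than Dixon's 95% limit, in 32 gene and arm combinations looked at, where chance gives about 1 in 20. H2AFZP3 had 8.24 CPM in replicate 1 of shNC with E2 plus fulvestrant, against 1.31 to 1.79 CPM in the other shNC libraries. HIST1H2APS4 had 0.892 CPM in replicate 1 of shARID1A with DMSO, against 0.135 to 0.352 CPM in the other shARID1A libraries. H3F3B had 469.7 CPM in replicate 1 of shARID1A with E2, against 444.1 to 451.6 CPM in the other shARID1A libraries.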

How the results depend on the processing

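Precision is limited by 2 libraries per group and by low counts, 30 to 181 per library for HIST1H2BJ and 2 to 28 for HIST2H2BF. With raw library totals, chosen after seeing the data, 2423 genes were higher and 5145 lower in shARID1A cells averaged over treatments, against 3458 higher and 3881 lower with TMM, and the median log2 fold change of all genes was -0.10 in place of -0.02. Members called were then 3 in place of 5 averaged over treatments (2 higher, 1 lower), 0 in place of 1 in DMSO, 1 in place of 3 with E2 and 1 in place of 3 with E2 plus fulvestrant. The lower one was H2AFY, whose log2 fold change turned to -0.067 (adjusted p = 0.0409). The ratio of summed variant levels was then 0.992 in place of 1.04. Without a filter on low counts, 3 members were called in DMSO in place of 1. Over all genes, fulvestrant gave 11 calls, against 294 by DESeq2, 256 without the filter and 40 with the replicate block. E2 gave 1 call, against 8 without the filter, and the difference of the E2 effect gave 5, against 16 by DESeq2, 41 without the filter and 12 with the block. With 1 library left out these 3 counts ran from 0 to 222 (0 without replicate 2 of shARID1A with E2 or of shNC with E2 plus fulvestrant, 222 without replicate 2 of shNC with E2), from 0 to 4 and from 2 to 17. Leaving out 1 library at a time gave 3 to 5 members averaged over treatments, 0 to 2 in DMSO, 1 to 3 with E2 and 0 to 4 with E2 plus fulvestrant, counts that include H2AFZP4, HIST1H2APS4, HIST1H1PS1 and, averaged over treatments, H2AFZP3, none called there with all libraries. The summed level of replication-dependent genes was then 1.36 to 1.43 times and that of variant genes 1.04 to 1.05 times as high in shARID1A as in shNC. HIST1H2BJ averaged over treatments kept its call under all 17 alternatives run, with log2 fold changes from 1.05 to 1.33. E2, fulvestrant and the difference of the E2 effect gave 0 called members under every alternative run.

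The replicate numbers name libraries only: deviations of same-numbered libraries correlated from -0.222 to 0.276 over 15 pairs of groups. With the number as a replicate block, 5, 1, 3 and 3 members were called averaged over treatments, in DMSO, with E2 and with E2 plus fulvestrant, the same members as without it.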
